A study of Mus musculus with 8 samples.

Results

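*E2f3* (ENSMUSG00000016477) encodes a member of the E2F family of transcription factors, and 8 of the 53761 H3K9me3 peaks found in mouse colon crypts were annotated to it. These 8 peaks are every peak of the deposited table whose closest gene is *E2f3*, numbered here from 1 to 8 by their start on chromosome 13. H3K9me3 was measured by ChIP-seq in whole colon crypt isolates of C57BL/6 mice, in 3 libraries from mice that lack *Smarcad1* through *Vil-Cre* (KO) and in 3 libraries from wildtype mice (WT), with 1 library of input chromatin for each genotype. The methods describe all animals as male and the KO as a floxed *Smarcad1* allele, from a mouse line made from 1 targeted embryonic stem cell clone, recombined by a Cre transgene under the villin promoter, which acts in the intestinal epithelium. Smarcad1 is a chromatin remodeling factor, and the comparison asks where the mark depends on it. Ages were not given in the sources used here, and the study calls the libraries biological replicates, with no number of animals for each found in the sources used here.

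E2F factors bind DNA, most of them together with a DP partner, and the activating members switch on genes for DNA replication and entry into S phase. Pocket proteins of the Rb family hold these activating members back until cyclin-dependent kinases release them, and E2F3 is one of them. The gene has a pair of start sites, and its coding transcripts differ in the first exon. H3K9me3 is the trimethylated form of lysine 9 on histone H3, a mark of heterochromatin and silenced repeats, and the dividing cells of the colon lie towards the base of the crypt.

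In GRCm38, *E2f3* spans 29906575 to 29986063 on the minus strand of chromosome 13, which is 79.5 kb. All 8 peaks lay inside the first intron, none overlapped an exon of the longest transcript, and none reached either start site. This intron runs from 29920226 to 29985299 in the longest transcript and is 65.1 kb long. The start site of the shorter coding transcripts lies 1.67 kb further into the gene, and their first intron, from 29920226 to 29984127, also holds all 8 peaks. The peaks were at 29945851 to 29946750 (peak 1), 29949001 to 29952600 (peak 2), 29952601 to 29957550 (peak 3), 29961751 to 29964450 (peak 4), 29964751 to 29965650 (peak 5), 29966551 to 29968950 (peak 6), 29969401 to 29973450 (peak 7) and 29976901 to 29979300 (peak 8). Since the gene is on the minus strand, peak 8 is nearest to its start, 6.76 kb downstream of the first start site and 5.09 kb downstream of the second. The nearest exon to any peak is an inner exon of a noncoding transcript, 437 bp from peak 8. Peak 1 ends the row 25.6 kb short of exon 2. Together the peaks covered 21900 bp of a stretch of 33450 bp, with gaps of 0 to 4200 bp between neighbours, and peaks 2 and 3 adjoined. Among the 11737 peaks that overlap a protein-coding gene, 21.6% lay wholly within the first intron of the transcript with the longest coding sequence.

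Little of the sequence under these peaks was repetitive, compared to most H3K9me3 peaks of the table. The middle 300 bases of peaks 1, 4 and 5, the 3 with the largest KO to WT difference, are printed here on the strand of the gene, to show the sequence where the mark differed most. Capitals mark the bases that the RefSeq sequence of GRCm38 soft-masks as repetitive.
E2f3 peak 1, chr13:29946151-29946450, minus strand: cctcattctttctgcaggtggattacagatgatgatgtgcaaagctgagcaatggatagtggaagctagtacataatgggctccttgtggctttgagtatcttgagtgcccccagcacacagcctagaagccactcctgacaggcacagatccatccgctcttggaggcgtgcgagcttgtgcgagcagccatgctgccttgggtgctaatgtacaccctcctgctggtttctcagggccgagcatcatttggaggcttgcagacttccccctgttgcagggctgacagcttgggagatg
E2f3 peak 4, chr13:29962951-29963250, minus strand: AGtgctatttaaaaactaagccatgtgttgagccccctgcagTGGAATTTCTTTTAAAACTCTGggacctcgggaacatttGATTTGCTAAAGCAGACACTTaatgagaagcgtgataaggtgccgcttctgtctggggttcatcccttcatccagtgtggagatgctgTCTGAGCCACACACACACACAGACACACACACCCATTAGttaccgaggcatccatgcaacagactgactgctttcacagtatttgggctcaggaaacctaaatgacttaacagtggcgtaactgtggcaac
E2f3 peak 5, chr13:29965051-29965350, minus strand: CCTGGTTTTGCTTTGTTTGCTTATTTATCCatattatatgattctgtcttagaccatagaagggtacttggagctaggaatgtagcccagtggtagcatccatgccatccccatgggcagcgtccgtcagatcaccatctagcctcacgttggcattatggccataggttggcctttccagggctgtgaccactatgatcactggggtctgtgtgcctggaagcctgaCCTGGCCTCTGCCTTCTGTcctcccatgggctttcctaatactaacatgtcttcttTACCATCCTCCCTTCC
The window of peak 1 held 0 soft-masked bases, that of peak 4 held 84 (28.0%) and that of peak 5 held 65 (21.7%), the latter both above the shares over their whole peaks (13.5% and 15.8%). The 3 windows hold 5, 5 and 3 CpG dinucleotides, in the same order. Over the whole peaks, between 9.36% (peak 2) and 23.0% (peak 3) of the bases were soft-masked, with a median of 15.5%. The median over all 53761 peaks was 37.8%, with quartiles of 20.9% and 60.8%, and all 8 *E2f3* peaks lay below that median. Over the 12843 other peaks that overlap a gene it was 29.9%. The rest of the intron was much like the peaks in this respect, with 19.1% soft-masked bases outside the peaks and 16.1% inside them, and a GC content of 45.5% and 46.4%. GC content ran from 43.2% to 48.6% among the *E2f3* peaks and had a median of 41.9% over all peaks. The peaks that limma called increased elsewhere (420 peaks, with *E2f3* left out) had a median of 15.4% soft-masked bases, and the 464 decreased peaks had 39.4%. These are descriptions of sequence, with no test.

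**Figure D1:**
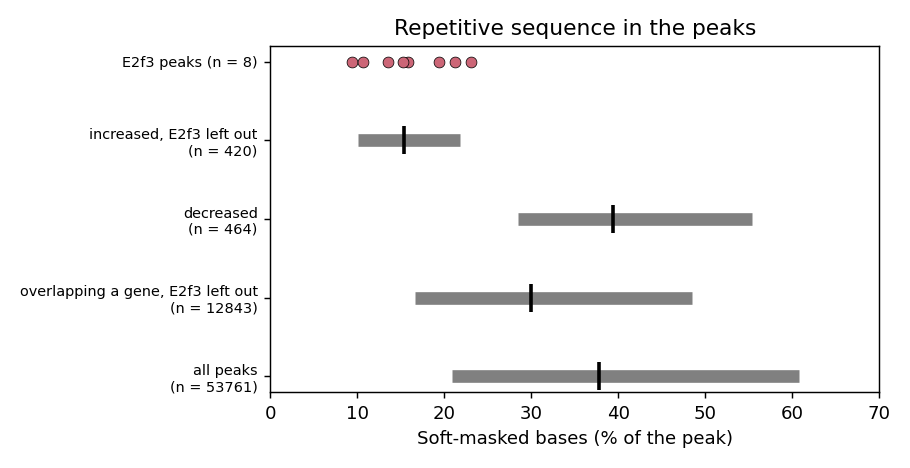
Share of soft-masked bases per peak, in percent of the peak's length, with 1 point for each of the 8 *E2f3* peaks. For the other sets, the grey bar runs from the first to the third quartile and the black line is the median; the *E2f3* peaks, from 9.36% to 23.0%, lie below the median of all peaks, and 6 of the 8 lie within the quartiles of the other increased peaks (10.1% to 21.9%).

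H3K9me3 was higher in KO than in WT at every *E2f3* peak, in every library. The gene was picked for description with this difference known, so the values that follow describe it and carry no test. Each is a log2 read count that the authors had brought to 1 distribution common to the 6 ChIP libraries, so a difference is relative to the bulk of the peaks. The median KO minus WT difference over all 53761 peaks was 0.0023. Averaged over the 8 peaks, the WT libraries stood at 4.56, 3.93 and 3.90 (replicates 1, 2 and 3) and the KO libraries at 5.83, 5.95 and 5.38. The groups did not overlap, at 4.13 ± 0.38 for WT and 5.72 ± 0.30 for KO (mean ± SD, n = 3 each). The mean difference was 1.59 on the log2 scale, which is 3.01-fold. In bulk crypt chromatin, more cells with the mark and more of the mark per cell cannot be told apart.

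Peak 1, the one deepest in the intron, was almost empty in WT. Its log2 read counts were 2.27, 1.39 and 2.05 in WT replicates 1, 2 and 3 and 5.03, 4.71 and 3.95 in KO replicates 1, 2 and 3. All KO values lay at least 1.69 above the highest WT value. It had the largest difference of the gene, 2.66 (standard error 0.41), or 6.33-fold. Behind these values stood 4, 3 and 5 reads in WT and 27, 26 and 17 reads in KO, so the size of this difference rests on few reads. The standard errors given for this and all other peaks are those of limma, which draws on the variance of all peaks. A limma standard error can be smaller or larger than the replicates of a peak alone would give.

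Peaks 2 and 3, which adjoin, were already the strongest in WT and differed least. At peak 2 the values were 5.67, 5.79 and 5.48 in WT and 6.58, 6.67 and 6.13 in KO, a difference of 0.81 (standard error 0.17). At peak 3, the widest with 4950 bp, they were 6.08, 5.93 and 6.01 in WT and 6.93, 6.86 and 6.79 in KO, a difference of 0.85 (standard error 0.15). The replicates of peak 3 were the tightest of the gene, with an SD of 0.07 in each genotype. The folds were 1.76 and 1.81.

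Peaks 4 to 7 followed each other with gaps of 300, 900 and 450 bp. At peak 4 the WT values were 4.87, 3.77 and 3.80, and the KO values were 6.03, 6.02 and 6.19. The difference of 1.93 (standard error 0.23) was the second largest. Peak 5, only 900 bp wide, had 3.65, 1.84 and 2.34 in WT and 4.25, 5.00 and 3.77 in KO. Here the groups came closest, since the lowest KO value exceeded the highest WT value by 0.12, while the difference of the means was 1.73 (limma standard error 0.40). The replicates of peak 5 spread widely, with an SD of 0.93 in WT and 0.62 in KO. At peak 6 the values were 4.50, 4.03 and 3.25 in WT and 5.49, 5.77 and 5.19 in KO, a difference of 1.56 (standard error 0.26).

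Peaks 7 and 8, with 3450 bp between them, lay nearest to the start of the gene. Peak 7 had 4.98, 4.70 and 4.92 in WT and 6.56, 6.59 and 5.98 in KO, a difference of 1.51 (standard error 0.19). At peak 8 the values were 4.50, 3.95 and 3.38 in WT and 5.81, 5.99 and 5.06 in KO, with a difference of 1.68 (standard error 0.26). The groups were apart by 1.00 at peak 7 and by 0.56 at peak 8. Every KO library exceeded every WT library at 8 of 8 *E2f3* peaks, compared to 7.20% of all peaks, and limma with a Benjamini-Hochberg adjusted p under 0.05 called all 8 increased, compared to 0.796% of all peaks. The gene was chosen from this contrast, so nothing is read from either count.

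**Figure D2:**
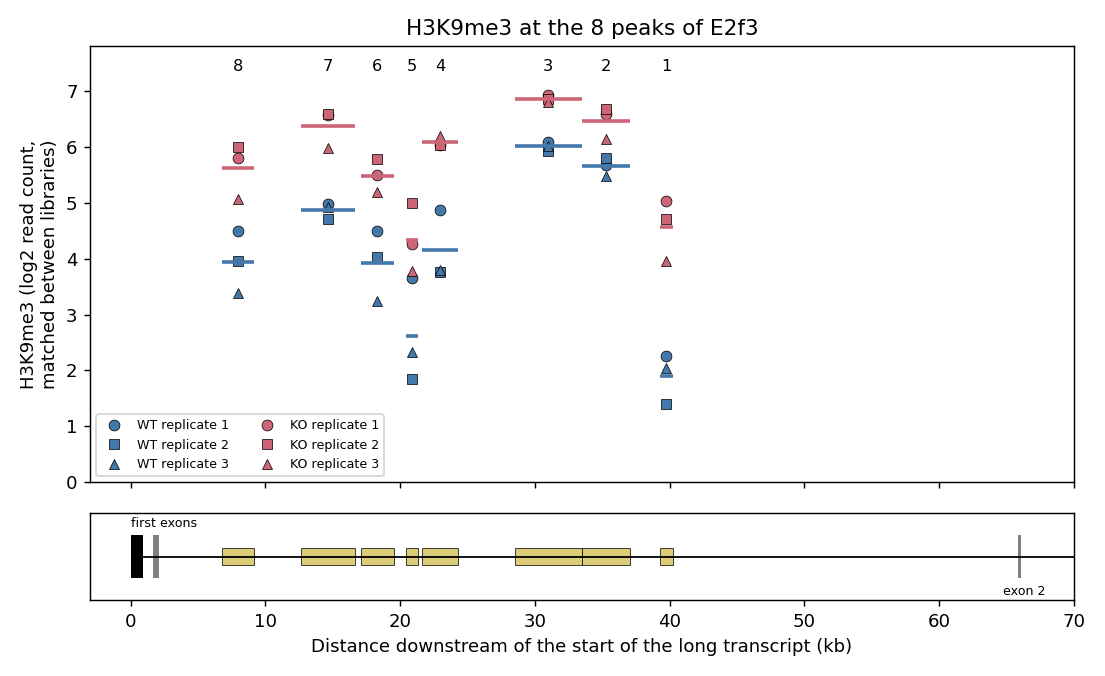
Matched log2 read count of H3K9me3 in each ChIP library (points) and the mean of each genotype (horizontal bars as wide as the peak) at *E2f3* peaks 1 to 8, against the distance from the start of the longest transcript in kb. The lower panel shows the first exons and exon 2 with the peaks as yellow boxes: all 8 peaks fall in the first intron, and the KO points lie above the WT points at each of them.

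Much of the variation between peaks was in WT. The mean level of WT ranged over 4.10 log2 units between peaks 1 and 3, and that of KO over 2.52. Counted as reads per kb, which takes out the width of the peak, WT had a mean of 4.44 at peak 1, of 6.81 to 7.78 at peaks 4 to 8, and of 14.6 and 13.4 at peaks 2 and 3. In KO, the means of all 8 peaks lay between 18.5 (peak 6) and 25.9 (peak 1) reads per kb. Among these 8 peaks the density of reads was more even in KO, and peaks 2 and 3, the densest in WT, were those with the smallest differences. At a like density in KO, a denser peak in WT has a smaller difference by construction. Peaks were called on all ChIP libraries together, so regions low in both genotypes are missing, and the rest of the intron was not measured. Summed over the 8 peaks, WT replicates 1, 2 and 3 held 213, 216 and 208 reads and KO replicates 1, 2 and 3 held 443, 628 and 426. These reads were recovered from the steps of the deposited values and are not scaled for depth. The median over all peaks was 14.1 to 18.3 reads per kb in the WT libraries and 13.3 to 17.2 in the KO libraries, so depth was no higher in KO.

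**Figure D3:**
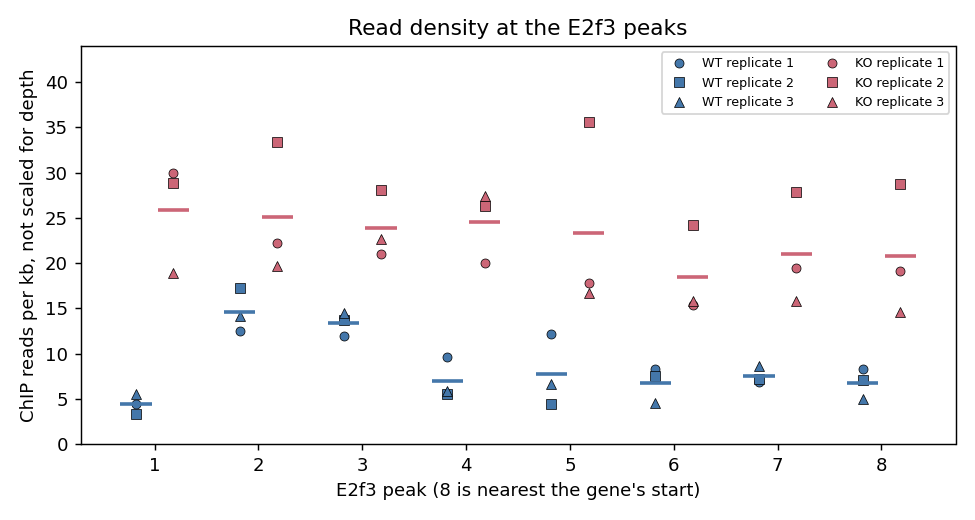
ChIP reads per kb, not scaled for depth, in each library (points) with the mean of each genotype (bars) at the 8 *E2f3* peaks. WT is low at peaks 1 and 4 to 8 and higher at peaks 2 and 3, whereas the KO means stay between 18.5 and 25.9 reads per kb.

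Input reads at *E2f3* were no more numerous in KO. Over the 8 peaks the WT input held 214 reads and the KO input 194. Scaled by the reads of each input over all peaks (733413 and 691770), the KO to WT ratio was 0.961 (95% exact Clopper-Pearson interval 0.787 to 1.17, for counting error only and with no replicate of either input). By peak the unscaled ratio ran from 0.667 to 1.26. This differs from *Vil1*, the gene whose promoter drives Cre, with 133 input reads in WT and 1111 in KO. *Smarcad1* itself has no peak in the table, so its deletion could not be checked in these libraries.

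Set against input, the *E2f3* peaks were poor in H3K9me3 in WT and above the typical peak in KO. The log2 ChIP value minus the log2 input of the same genotype had a median of 0.79 over all peaks in WT and of 0.88 in KO. These medians have no absolute meaning, since the ChIP values were matched and the input was not. Relative to them, all 8 *E2f3* peaks lay below in WT, from -2.06 at peak 1 to -0.05 at peak 2, with a median of -1.29. The 420 other increased peaks had a median of -0.88 in WT on the same scale. In KO all 8 lay above, from 0.09 at peak 8 to 1.10 at peak 1, with a median of 0.58. In WT, 6 of the 8 were among the lowest 2% of all peaks, while peak 3 stood at percentile 12.1 and peak 2 at percentile 45.8. In KO they stood at percentiles 56.9 to 93.8. The peaks were called on all ChIP libraries together, so a region can be in the table through its KO reads.

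The median SD of the 8 peaks was 0.51 in WT and 0.32 in KO, and over all peaks it was 0.28 and 0.31. The WT replicates differed more than at the median peak at 5 of the 8 and less at peaks 2, 3 and 7, where the SD was 0.16, 0.07 and 0.15. WT replicate 1 was the highest WT library at 7 of the 8 peaks, and KO replicate 3 was the lowest KO library at 7 of the 8. At the 420 other increased peaks, WT replicate 1 was the highest at 46.4% and KO replicate 3 the lowest at 71.0%, compared to 34.8% and 32.4% of all peaks. The mean *E2f3* difference was 1.81 without WT replicate 1 and 1.76 without KO replicate 3, a rise that follows from their place in the groups. It was 1.48 to 1.54 with each of the other replicates left out in turn. What sets WT replicate 1 and KO replicate 3 apart was not tested.

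No other peak within 1 Mb of *E2f3* passed in the fit over all peaks, as was the case for most peaks. Within 1 Mb of the *E2f3* peaks lay 26 other peaks, 18 beyond the start of the gene and 8 beyond its end, and none of them was chosen by its values. Of these, limma called 0 increased and 0 decreased at an adjusted p under 0.05, where 1.66% of all peaks were called. With only 26 peaks, a count of 0 says little at that share. At an unadjusted p under 0.05 there were 5 of the 26, all lower in KO, beside 10.6% of all peaks in either direction. Their differences ran from -0.97 to 0.39 with a median of -0.12. Every KO library lay above every WT library at 0 of the 26 and at 7.20% of all peaks. The reverse, every KO library below every WT library, held at 6 of the 26 and at 8.42% of all peaks. With the input subtracted, 2 of the 26 were called increased and 5 decreased, where 29.5% of all peaks were called. The first peak beyond the start of the gene (29998051 to 30000150, 18.8 kb from peak 8) stood at 5.30 ± 0.04 for WT and 5.18 ± 0.29 for KO (mean ± SD, n = 3 each), a difference of -0.12 (adjusted p = 0.90 from limma). The first peak beyond the end (29897551 to 29898150) stood at 3.71 ± 0.09 for WT and 2.84 ± 0.36 for KO (mean ± SD, n = 3 each), a difference of -0.88 (adjusted p = 0.38 from limma). The neighbouring genes *Cdkal1*, which encodes a tRNA-modifying enzyme, and *Mboat1*, which encodes an acyltransferase, had 3 peaks each. Their differences lay between -0.94 and -0.35 at *Cdkal1* and between -0.38 and 0.17 at *Mboat1*, and none passed the test. Nor did the peaks of *A330102I10Rik* (-0.31) and *Exoc2* (0.09), with 1 peak each. The lowest adjusted p of the 26 was 0.079, at a peak without a gene within 5 kb (30268501 to 30269700) that was 0.97 lower in KO. This peak passed as decreased without KO replicate 3 (adjusted p = 0.0243 from limma) and when weak peaks, under a mean of 4, were left out (adjusted p = 0.0486 from limma).

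**Figure D4:**
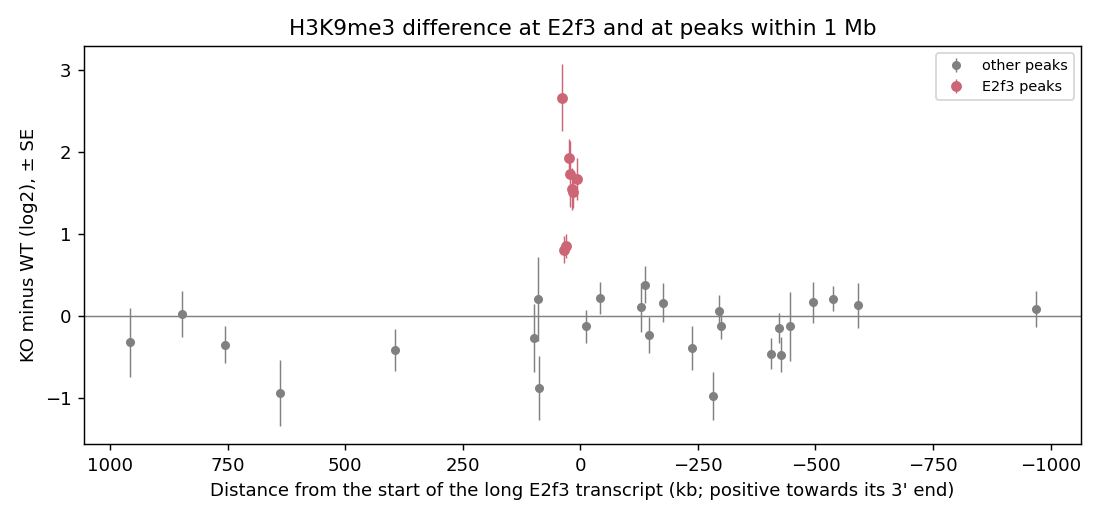
KO minus WT difference of the log2 read count with its limma standard error, at the 8 *E2f3* peaks (red) and at the 26 other peaks within 1 Mb (grey), against the distance from the start of the longest *E2f3* transcript in kb. The *E2f3* peaks lie at 0.81 to 2.66 and the others at -0.97 to 0.39.

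Most genes that act with *E2f3* carried no H3K9me3 peak, as was the case for most genes. Of 65 other genes of the E2F pathway and the cell cycle, 6 had a peak and 59 had none, while 19.2% of 21924 protein-coding genes had one. No peak was annotated to the pocket proteins (3 genes), to subunits of the MuvB complex (5 genes), to cyclins (9 genes) or to cyclin-dependent kinases (4 genes). The 11 peaks of the 6 genes were tested in the fit over all peaks, where 3 were increased and 0 decreased, compared to 0.796% and 0.863% of all peaks. All 11 overlap a protein-coding gene. Of the 11737 peaks of the table that do, 370 were increased (with *E2f3* left out) and 155 decreased, so the share increased is higher there than over all peaks. The median difference of the 11 peaks was 0.38, and the list was put together with earlier results of these data known.

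Within the E2F family, 2 of the 7 other members had a peak. *E2f7*, an atypical member that represses transcription without a DP partner, had 5 peaks inside the gene (chromosome 10, 110745439 to 110787384), and 2 of them increased. The peak over exons 5 and 6 (110762101 to 110766600) had 5.30, 5.12 and 4.97 in WT and 6.64, 6.63 and 6.42 in KO. The groups were well apart, with a difference of 1.43 (standard error 0.17), and limma gave an adjusted p of 2.5e-08. Exons 8 and 9 lay under a wider peak (110770051 to 110775450) with 5.85, 5.53 and 5.67 in WT and 6.71, 6.84 and 6.42 in KO, a difference of 0.98 (standard error 0.16) at an adjusted p of 4.3e-05. This call was lost when limma used 1 variance prior for all levels (adjusted p = 0.216). The other 3 *E2f7* peaks, narrower than these, had differences of 0.38, 1.20 and 0.82 and did not pass (adjusted p = 0.82, 0.134 and 0.310 from limma). The first of them was at -0.01 without KO replicate 2 and at 0.77 without KO replicate 3, and with the input subtracted it passed at 1.96 (adjusted p = 0.0042 from limma). Most of that value came from the input, with 6 reads in WT and 2 in KO at this peak. The counting noise of these few reads does not enter the p-value, so no gain is read from it. The second of the 3 narrower peaks passed at 1.81 without WT replicate 3 (adjusted p = 0.0093 from limma). Over its 5 peaks, *E2f7* averaged 4.06 ± 0.26 for WT and 5.02 ± 0.37 for KO (mean ± SD, n = 3 each). Its peaks held 8.16% to 31.7% soft-masked bases, beside 9.36% to 23.0% at *E2f3*, and all lay below the median of all peaks. The input at *E2f7* gave 116 reads in WT and 101 in KO. The *E2f7* peaks differ in place from those of *E2f3*, since 4 of the 5 overlapped an inner exon. *E2f5*, a repressor that works through pocket proteins, had 1 intronic peak with a difference of -0.16 (adjusted p = 0.84 from limma).

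Among inhibitors of cyclin-dependent kinases, *Cdkn1c*, which encodes p57 and is imprinted, had 1 peak (chromosome 7, 143458801 to 143461650). This peak overlapped all 4 exons and reached beyond the start of the gene, which lies at 143461050 on the minus strand. Its values were 5.21, 5.15 and 5.54 in WT and 6.50, 6.28 and 6.13 in KO. The difference of 1.00 (standard error 0.17) passed the test (adjusted p = 0.00012 from limma), although not when limma used 1 variance prior for all levels (adjusted p = 0.204). The 2 peaks of *Cdkn2a*, which encodes p16 and p19Arf, had differences of -0.27 and 0.26 and did not pass. Nor did the single peaks of *Tfdp1*, a DP partner of the E2F factors (-0.24) and of *Pola1*, which encodes the catalytic subunit of DNA polymerase alpha (-0.27), with adjusted p-values of 0.843 and 0.881 from limma.

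**Figure D5:**
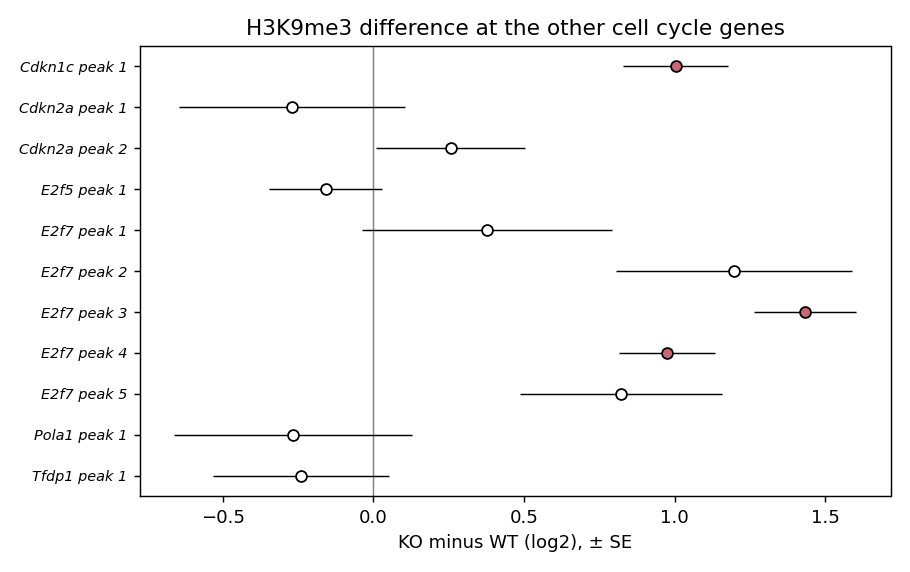
KO minus WT difference of the log2 read count with its limma standard error at the 11 peaks of the 6 other cell cycle genes, numbered by position within each gene. Red points passed an adjusted p under 0.05: *Cdkn1c* at 1.00 and *E2f7* peaks 3 and 4 at 1.43 and 0.98.

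Of the 738 genes with at least 4 peaks, *E2f3* had the seventh largest mean difference, and it was 1 of 2 at which every KO library exceeded every WT library at each peak, the other being *1600021P15Rik*. This is again a description of the contrast from which *E2f3* was chosen. Likeness to *E2f3* was measured as the root mean square difference between the centred means over peaks in the 6 ChIP libraries, where the median gene stood at 0.86. The 5 closest genes were *Trio* (0.16), a guanine nucleotide exchange factor, *Bcl11b* (0.17), a zinc finger transcription factor, *Wwc2* (0.20), *1600021P15Rik* (0.23) and the tetraspanin gene *Tspan5* (0.23). Their mean differences were 1.43, 1.73, 1.69, 1.23 and 1.68, beside 1.59 at *E2f3*; they were picked by their library means, which fixes much of this likeness. Most of their peaks shared the separation of the libraries. Every KO library exceeded every WT library at 9 of 10 *Trio*, 6 of 7 *Bcl11b*, 14 of 16 *Wwc2*, 7 of 7 *1600021P15Rik* and 9 of 10 *Tspan5* peaks. These 5 genes lie on 5 other chromosomes. The median share of soft-masked bases in their peaks was 12.5% to 17.4%. The place of the peaks varied, with 10 of 10 *Trio* peaks, 9 of 10 *Tspan5* peaks and 6 of 7 *1600021P15Rik* peaks in a first intron. The same held for 5 of 16 *Wwc2* peaks and 0 of 7 *Bcl11b* peaks.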

How the data were processed

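The authors trimmed the reads with Trim Galore, mapped them to GRCm38 with Bowtie2 (2.3.2), removed duplicates and reads under a mapping quality of 20, and ran MACS in SeqMonk on the pooled ChIP libraries against the inputs. The methods describe paired reads and the sample records single reads. For ChIP, the authors deposited log2 counts of reads in each peak, matched between libraries. For input, the deposited log2 counts are unscaled. A second deposited table holds the authors' own comparison (p-values, FDR and log2 fold changes) and was not used.

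KO and WT were compared over all 53761 peaks with limma 3.58.1 in R 4.3.3 (variance prior following the mean, genotype only, two-sided, Benjamini-Hochberg adjusted p under 0.05); the study tested read counts, but the table holds log2 values. The test was tried on simulated data. Python 3.11.15 with scipy 1.17.1 served for the rest. Peaks were placed on GENCODE vM21 gene models, and sequence came from RefSeq (GRCm38.p6). Reads behind ChIP values were recovered by counting the distinct values of each library up to 140, with median reads per peak of 14 to 20. Named were *E2f3*, cell cycle genes with a changed peak or among the 5 largest differences of their list, genes within 1 Mb, and the 5 genes most like *E2f3*. The gene and the lists were chosen with earlier results of these data known, and 1 gene of the cell cycle list is not reported here. Alternatives were the variance prior, a minimum mean log2 value of 4, subtraction of input, centring, quantile normalization, a block for the replicate number, stricter thresholds, a window of 500 kb, other averages over the peaks, and leaving out each replicate.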

Additional observations from a re-analysis of the deposited data

How the results depend on the processing

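The mean *E2f3* difference stayed between 1.38 and 1.81 under 14 alternatives (1.48 to 1.81 with each replicate left out in turn), and all 94 values of its single peaks under the alternatives were above 0, from 0.71 to 3.25. Some of these values were fixed in advance. The variance prior and the replicate block cannot change a difference of means between groups of equal size. The minimum mean log2 value leaves the difference of each remaining peak as it was, and centring shifts all peaks alike. For the 11 peaks of the other cell cycle genes, 123 of 127 values under the alternatives kept their side of the threshold. Their count of changed peaks was 1 with a variance prior without a trend and 3 to 4 with each replicate left out. The count among the 26 peaks within 1 Mb was 1 without peaks under a mean log2 value of 4, 7 for ChIP minus input (2 increased and 5 decreased), and 0 to 1 with each replicate left out. Over the whole table, 892 changed peaks became 127 without the trend (112 increased), 15873 for ChIP minus input (9361 increased), 554 at an adjusted p under 0.01, 511 with a log2 change of at least 1, and 570 to 805 with each replicate left out, where the fit without WT replicate 2 gave 570. One input is subtracted from all 3 libraries of a genotype, so noise of the input adds to the difference and not to the spread; for the other settings the cause was not tested. With the replicate block, 872 peaks changed in the whole table, 3 in the cell cycle list and 0 within 1 Mb. Replicates of the same number shared little deviation, with correlations from -0.0013 to 0.019 over peaks. For replicates of different number they ran from -0.024 to 0.0074. Counting noise at few reads per peak lowers such correlations, so whether the numbers pair samples cannot be settled here. With 3 to 5 reads per WT library at peak 1, and 0.40 to 0.41 as the limma standard errors at the 900 bp peaks 1 and 5, narrow peaks gave the least precise differences.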
